A study of Homo sapiens with 35 samples.

Results

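SOX2, POU5F1 (also called OCT4) and NANOG, the transcription factors at the core of the pluripotency network, were followed as H1 cells were turned into definitive endoderm. H1 is a long-established line of human embryonic stem cells. The genes were taken by symbol, 3 of the 16103 genes in the bulk RNA-seq table, and all 3 passed the low-count filter in each of the 33 comparisons made. They were read in 30 bulk libraries (15 groups of 2) and in 3 single-cell libraries (1 each).

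At 6 h the bulk groups were AA+CHIR, BRD+CHIR, JNJ+CHIR, CHIR, BRD and None, and at 24 h they were the same without None, whose 24 h samples were not analysed here. AA is Activin A, a signalling protein of the TGF-beta family that acts through Nodal receptors, at 100 ng/ml, and CHIR is CHIR99021, a GSK3 inhibitor that activates Wnt signalling, at 3 µM. BRD and JNJ are compounds named by code, whose doses the labels do not give. At 72 h the groups were definitive endoderm sorted after BRD+CHIR-BRD-BRD, JNJ+CHIR-JNJ-JNJ, BRD+LoAA+CHIR-BRD+LoAA-BRD+LoAA or AA+CHIR-AA-AA, called here the BRD, JNJ, BRD+LoAA and AA arms. CHIR was given on the first day only, and the amount in LoAA is not stated. All groups share the H1 line, and the bulk groups share its basal medium. The labels do not say whether the 2 replicates of a group were separate cultures, so the p-values measure a spread that may be technical. The single cells were sorted before loading and came from AA+CHIR-AA at 36 h (labelled primitive streak), from AA+CHIR-AA at 72 h (Endo), and from a commercial mesoderm induction medium at 72 h (Meso).

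SOX2, an HMG-box factor, and POU5F1, a POU-domain factor, bind DNA side by side at enhancers of pluripotent cells, and NANOG, a homeodomain factor, occupies many of the same sites. The 3 factors activate their own genes and one another's, which keeps embryonic stem cells undifferentiated. Their known roles differ as cells leave that state: SOX2 is retained in neural ectoderm and lost in the primitive streak, whereas POU5F1 and NANOG persist for a time in cells that form mesoderm and endoderm. In human embryonic stem cells NANOG is a known target of Activin and Nodal signalling through SMAD2 and SMAD3.

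SOX2 lies on chromosome 3 (GRCh38, 181711924 to 181714436, plus strand), within the longer non-coding gene SOX2-OT of the same strand. POU5F1 lies on chromosome 6 (31164337 to 31180731, minus strand) and NANOG on chromosome 12 (7787794 to 7799141, plus strand), and all 3 are annotated as protein coding. The sequences upstream of SOX2 and NANOG are shown because the factors bind their own promoters, and capitals mark the letters of the octamer core bound by POU factors (ATGCAAA) and of a SOX core (ACAATG), searched on both strands. The 250 bases before each start site, from RefSeq on GRCh38.p14, are chr3:181711675-181711924 and chr12:7789152-7789401, both on the plus strand, and POU5F1 is named only. The gene spans above come from GENCODE, another annotation, whose starts differ from those of RefSeq. The NANOG stretch therefore lies within its GENCODE span, and the SOX2 stretch ends on the first base of its span. Distances below are to the RefSeq start.
SOX2 upstream: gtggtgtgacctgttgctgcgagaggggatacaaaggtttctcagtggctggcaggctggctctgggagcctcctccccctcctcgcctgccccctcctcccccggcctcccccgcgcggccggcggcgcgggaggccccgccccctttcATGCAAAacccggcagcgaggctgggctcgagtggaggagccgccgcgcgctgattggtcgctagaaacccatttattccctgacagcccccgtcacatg
NANOG upstream: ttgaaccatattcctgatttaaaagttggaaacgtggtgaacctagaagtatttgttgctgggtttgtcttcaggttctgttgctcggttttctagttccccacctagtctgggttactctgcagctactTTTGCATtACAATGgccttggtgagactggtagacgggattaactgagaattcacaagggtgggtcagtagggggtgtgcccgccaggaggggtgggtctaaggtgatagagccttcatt
The SOX2 sequence held ATGCAAA 100 to 94 bases before the start. The NANOG sequence held the octamer core on the other strand, as TTTGCAT 120 to 114 bases before the start, followed by ACAATG at 112 to 107. Among 35116 promoters of this length, 3.94% held the octamer core and 9.29% the SOX core. These matches describe letters, not binding.

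The bulk libraries held 4572437 to 49503884 counts. By the numbers in their titles they fall into series 33 at 6 h, series 38 at 24 h and series 46, which holds the sorted cells and the BRD alone libraries of both times. The MTRNR2L genes, which resemble mitochondrial rRNA, made up 7.58% to 13.9% of all counts in series 46, against 0.552% to 1.1% in series 33 and 0.247% to 0.313% in series 38. A comparison across time with CHIR, or of another group with BRD alone, therefore also crosses title series, and the parts of treatment and series cannot be told apart. Levels are CPM, counts scaled to a common library size with TMM factors over all libraries, changes are log2 differences with their SE from edgeR's quasi-likelihood test, and adjusted p-values (Benjamini-Hochberg) are over all genes tested. With 2 libraries per group a lack of overlap is no test, and the share of all genes without overlap was not counted. In bulk RNA fewer cells of a type and less RNA per cell cannot be told apart.

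**Figure D1:**
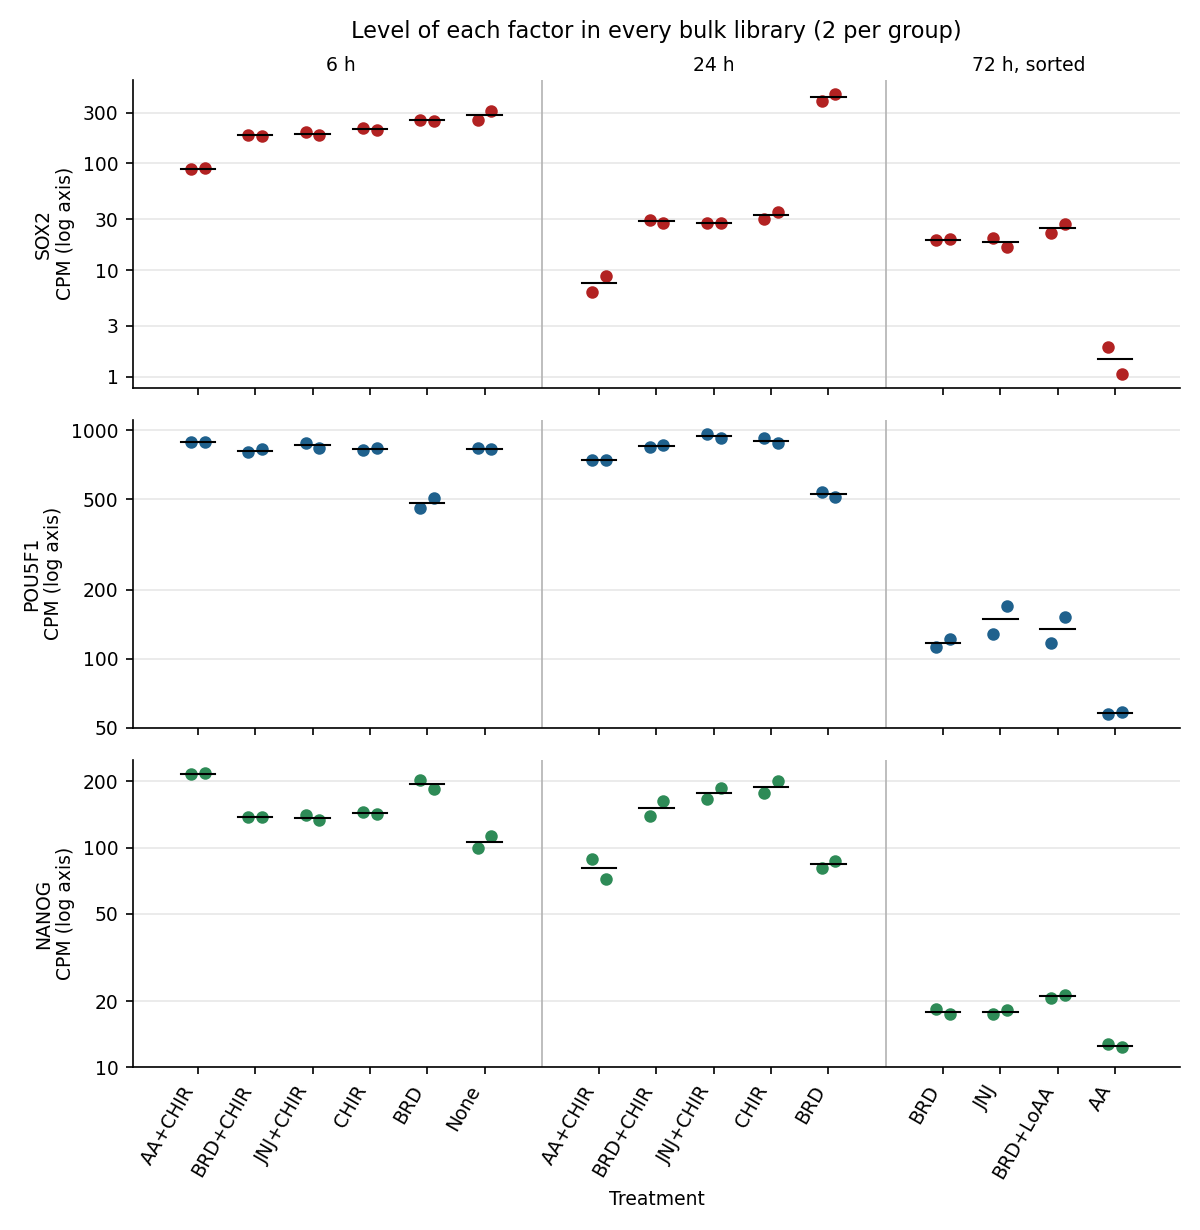
Level of SOX2, POU5F1 and NANOG in each of the 30 bulk libraries, in TMM-scaled CPM on log axes. Points are libraries (2 per group) and bars their mean; SOX2 was lowest in AA+CHIR at 6 h and 24 h and in the AA arm at 72 h, while POU5F1 stayed above 450 CPM in every library at 6 h and 24 h and below 200 CPM in every sorted library at 72 h.

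Within 6 h CHIR alone moved SOX2 and NANOG in opposite directions and gave no call for POU5F1. SOX2 had 216 and 207 CPM with CHIR, against 257 and 308 CPM with None. NANOG had 145 and 141 CPM with CHIR, against 99.8 and 113 CPM with None. The groups did not overlap for either gene. SOX2 fell by 0.43 ± 0.09 on the log2 scale (edgeR's quasi-likelihood test, adjusted p = 0.00911) and NANOG rose by 0.42 ± 0.09 (adjusted p = 0.0097). POU5F1 had 816 and 838 CPM with CHIR and 836 and 828 CPM with None, with a log2 change of -0.02 ± 0.07 and a 95% interval of -0.16 to 0.13. Of all genes tested, 2.96% were called. Primitive streak genes moved beside these changes, 5 of 9 tested higher and 0 lower, with summed levels of 235.5 to 259 CPM with CHIR against 37.04 to 42.13 CPM with None, and their part in the result was not tested. The SOX2 and NANOG calls were lost in 1 fit over all 30 libraries (adjusted p = 0.156 and 0.0621). Without 1 library the SOX2 adjusted p was 0.0625 and 0.12 (CHIR replicate 1 or 2 left out) and 0.17 (None replicate 2), at a log2 change of -0.29 in the last case. For NANOG it was 0.0827 and 0.0721 (CHIR replicate 1 or 2) and 0.153 (None replicate 1).

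Adding Activin A to CHIR for 6 h lowered SOX2 and raised NANOG. SOX2 had 89.3 and 90.1 CPM with AA+CHIR, against 216 and 207 CPM with CHIR, a fall of 1.24 ± 0.09 on the log2 scale (adjusted p = 3.21e-07). NANOG had 215.5 and 217 CPM with AA+CHIR, against 145 and 141 CPM with CHIR, a rise of 0.60 ± 0.09 (adjusted p = 0.000811). The AA+CHIR libraries were the lowest of the 6 h groups for SOX2 and the highest for NANOG. POU5F1 had 893 and 890 CPM with AA+CHIR, against 816 and 838 CPM with CHIR, and its log2 change of 0.11 (95% interval -0.04 to 0.26, adjusted p = 0.628) did not pass the test. Of all genes, 1.49% were called. Primitive streak genes moved beside these changes, 5 of 9 tested higher and 0 lower, and their summed level was 510 to 515 CPM with AA+CHIR against 236 to 259 CPM with CHIR. The part of that shift in the result was not tested.

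By 24 h the direction for NANOG had turned. NANOG had 89.0 and 71.9 CPM with AA+CHIR, against 178 and 201 CPM with CHIR, a fall of 1.23 ± 0.14 on the log2 scale (adjusted p = 5.68e-05). SOX2 had 6.28 and 8.81 CPM with AA+CHIR, against 29.8 and 35.3 CPM with CHIR, a fall of 2.11 ± 0.17 (adjusted p = 1.66e-06). The groups did not overlap for either gene, and the percentage of all genes called was 2.86%. POU5F1 had 739 and 740 CPM with AA+CHIR, against 925 and 876 CPM with CHIR, a log2 change of -0.28 ± 0.09 whose adjusted p was 0.106. That call depended on the method: the adjusted p was 0.00456 with DESeq2, 0.0164 with limma-voom and 0.00571 without the BRD alone libraries. At this time 10 of 14 primitive streak genes were higher with AA+CHIR and 0 lower, with summed levels of 3096 to 3282 CPM against 1595 to 1667 CPM, and mesoderm genes had 4 of 8 higher and 0 lower. Of 12 definitive endoderm genes tested 2 were higher and 2 lower, while their summed level was 1523 to 1663 CPM with AA+CHIR against 294 to 336 CPM with CHIR. The part of these cell types in the result was not tested.

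The effect of Activin A over CHIR was set against itself at 24 h and 6 h in 1 fit with an interaction term, where 1.9% of all genes were called. For NANOG the effect differed by -1.83 ± 0.16 between 24 h and 6 h (adjusted p = 5.4e-07). For SOX2 it differed by -0.87 ± 0.18 (adjusted p = 0.0115), so the fall was deeper at 24 h. That SOX2 call was lost with limma-voom (adjusted p = 0.134) and without 24 h AA+CHIR replicate 1 (-0.64, adjusted p = 0.0784), 6 h CHIR replicate 2 (adjusted p = 0.0635) or 24 h CHIR replicate 2 (adjusted p = 0.0614). For POU5F1 the difference was -0.39 ± 0.10 (adjusted p = 0.0494), and leaving out any 1 of the 8 libraries ended the call, with adjusted p up to 0.216. Each effect is taken within 1 title series, 33 at 6 h and 38 at 24 h. The same term for BRD and for JNJ gave no call for the 3 factors, with differences of 0.01 and -0.12 for SOX2, -0.07 and 0.00 for POU5F1 and -0.28 and -0.05 for NANOG, where 0.00636% of all genes were called in each.

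**Figure D2:**
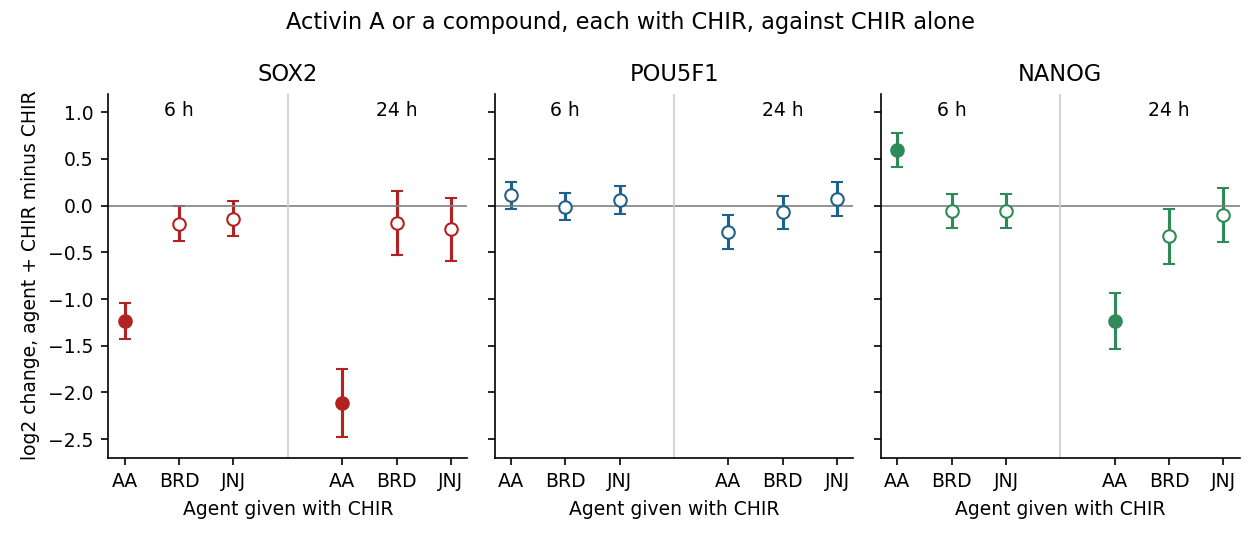
log2 change of each factor with Activin A (AA), BRD or JNJ given with CHIR, relative to CHIR alone, at 6 h and 24 h. Bars are 95% intervals; filled points have an adjusted p under 0.05 and open points do not. AA is filled for SOX2 and NANOG at both times, with NANOG above 0 at 6 h and below 0 at 24 h, and every BRD and JNJ point is open.

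Neither compound gave a call for any of the 3 factors over CHIR. At 6 h SOX2 had 185 and 183 CPM with BRD+CHIR and 195 and 187 CPM with JNJ+CHIR, against 216 and 207 CPM with CHIR. These libraries all lay below the CHIR libraries, with log2 changes of -0.19 (95% interval -0.38 to -0.01, adjusted p = 1) for BRD and -0.14 (-0.32 to 0.05, adjusted p = 0.986) for JNJ. At 24 h SOX2 had 29.6 and 27.7 CPM with BRD+CHIR and 27.4 and 27.4 CPM with JNJ+CHIR, against 29.8 and 35.3 CPM with CHIR, with log2 changes of -0.18 (-0.52 to 0.16) and -0.25 (-0.59 to 0.09). These intervals exclude a fall as large as that with Activin A. Over all genes, edgeR called 0 with BRD and 0.0202% with JNJ at 6 h, and 0 with BRD and 0.154% with JNJ at 24 h. For BRD, 452 genes at 6 h and 738 at 24 h had an unadjusted p under 0.05, DESeq2 called 1 at 6 h and 15 at 24 h, and limma-voom called 0 at both times. For JNJ, edgeR called 3 genes at 6 h, against 9 with DESeq2, and 24 at 24 h, against 144 with DESeq2, 286 in 1 fit over all 30 libraries and 55 without the BRD alone libraries.

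NANOG had 137.0 and 137.0 CPM with BRD+CHIR and 141 and 133 CPM with JNJ+CHIR at 6 h, against 145 and 141 CPM with CHIR. Its log2 changes were -0.05 (95% interval -0.24 to 0.13) and -0.06 (-0.24 to 0.13). At 24 h it had 139 and 162 CPM with BRD+CHIR and 166 and 187 CPM with JNJ+CHIR, against 178 and 201 CPM with CHIR. The BRD libraries lay below the CHIR libraries and the JNJ libraries overlapped them, with log2 changes of -0.33 (-0.62 to -0.04, adjusted p = 0.961) and -0.10 (-0.39 to 0.19, adjusted p = 0.879). POU5F1 lay between 803 and 883 CPM with either compound at 6 h and between 848 and 965 CPM at 24 h, and its 4 log2 changes over CHIR ran between -0.07 and 0.07.

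Set against Activin A, both compounds left SOX2 higher at both times. At 6 h the log2 change to AA+CHIR was 1.04 ± 0.09 for BRD+CHIR (adjusted p = 2.56e-06) and 1.10 ± 0.09 for JNJ+CHIR (adjusted p = 1.71e-06), and at 24 h it was 1.93 ± 0.17 (adjusted p = 4.91e-06) and 1.86 ± 0.17 (adjusted p = 4.41e-06). NANOG was lower than with AA+CHIR at 6 h, by -0.65 ± 0.09 for BRD+CHIR (adjusted p = 0.000268) and -0.65 ± 0.09 for JNJ+CHIR (adjusted p = 0.000299), and higher at 24 h, by 0.90 ± 0.14 (adjusted p = 0.00112) and 1.13 ± 0.14 (adjusted p = 8.86e-05). POU5F1 passed only in JNJ+CHIR at 24 h (0.36 ± 0.09, adjusted p = 0.023), a call that leaving out any 1 of its 4 libraries ended (adjusted p = 0.0902 to 0.15); for BRD+CHIR at 24 h it changed by 0.21 (adjusted p = 0.278). The share of all genes called was 1.48% for BRD+CHIR and 1.38% for JNJ+CHIR at 6 h, and 2.75% for BRD+CHIR and 4.67% for JNJ+CHIR at 24 h. The comparisons with AA+CHIR share its libraries, and those with CHIR share the CHIR libraries.

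BRD and JNJ formed the 1 pair of compounds compared with each other, at 6 h and 24 h with CHIR and in sorted cells at 72 h. None of the 9 differences between them passed the test. For SOX2 the log2 difference, BRD minus JNJ, was -0.05 (95% interval -0.24 to 0.13) at 6 h, 0.07 (-0.27 to 0.41) at 24 h and 0.08 (-0.44 to 0.61) at 72 h. The widest gap was POU5F1 at 72 h, -0.34 with an interval of -0.69 to 0.01. For NANOG the intervals ran -0.18 to 0.18, -0.52 to 0.06 and -0.45 to 0.46. Over all genes 0.0202% were called at 6 h, 0.18% at 24 h and 0 at 72 h. At 6 h edgeR called 3 genes and DESeq2 11, and at 24 h edgeR called 28, DESeq2 130 and 1 fit over all 30 libraries 256. At 72 h, 390 genes had an unadjusted p under 0.05, DESeq2 called 4 and limma-voom called 0. The compounds' doses are not stated, so these are readouts as given and not at matched doses.

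Between 6 h and 24 h SOX2 fell in all 4 arms with CHIR. The log2 change, 24 h minus 6 h, was -3.55 ± 0.14 in AA+CHIR, -2.67 ± 0.13 in BRD+CHIR, -2.80 ± 0.13 in JNJ+CHIR and -2.68 ± 0.13 in CHIR (largest adjusted p = 1.99e-12). With BRD alone SOX2 rose, at 387 and 450 CPM at 24 h against 255 and 253 CPM at 6 h (0.70 ± 0.12, adjusted p = 0.00036), and NANOG fell by 1.22 ± 0.11 on the log2 scale (adjusted p = 2.35e-07). The BRD alone libraries of both times lie in series 46. NANOG fell in AA+CHIR by 1.41 ± 0.11 (adjusted p = 2.57e-09), rose with CHIR by 0.42 ± 0.11 (adjusted p = 0.00476) and with JNJ+CHIR by 0.37 ± 0.11 (adjusted p = 0.0117), and changed by 0.14 ± 0.11 with BRD+CHIR (adjusted p = 0.346). The calls for these rises were lost without 24 h CHIR replicate 2 (adjusted p = 0.0674), and without 6 h JNJ+CHIR replicate 2 (adjusted p = 0.0826) or 24 h JNJ+CHIR replicate 2 (adjusted p = 0.1). The share of all genes called was 42.2% in AA+CHIR, 37.4% in BRD+CHIR, 41.1% in JNJ+CHIR, 37.9% in CHIR and 12.9% with BRD alone, and the members' calls over time are read against these shares.

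Outside AA+CHIR, POU5F1 was nearly level between 6 h and 24 h. It fell in AA+CHIR by 0.25 ± 0.07 (adjusted p = 0.00774), which with total counts as the only scaling became -0.10 (adjusted p = 0.275), where the median of all genes moved to 0.12. In the other CHIR arms it changed by 0.07 to 0.14, none called, and the sign turned to between -0.11 and -0.06 when near-identical copies were summed. Of the 3011 distinct 85-base windows in its transcripts, 16.4% also occur in another gene, among them POU5F1B (7.07%), a processed copy on chromosome 8. POU5F1B took 9.91% to 16.8% of the summed counts of both genes in series 33 at 6 h, but 0.00929% to 1.04% in series 38 at 24 h and 8.36% to 13.6% at 72 h. How reads were split between the copies may thus differ between series and was not tested. NANOG shares 11.5% of its 5471 windows, most with NANOGP8 (9.65%), which took 6.06% to 19.8% of their sum at 24 h and 2.95% to 32.4% at 72 h, and SOX2 shares 0.206%.

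BRD alone had the lowest POU5F1 of the groups at 6 h and at 24 h, and the highest SOX2 at 24 h. Its NANOG at 24 h overlapped that of AA+CHIR. SOX2 had 29.6 and 27.7 CPM with BRD+CHIR at 24 h, against 387 and 450 CPM with BRD alone, the highest of any group, a log2 change of -3.87 ± 0.17 for BRD+CHIR minus BRD (adjusted p = 6.31e-11). POU5F1 had 848 and 864 CPM with BRD+CHIR, against 539 and 513 CPM with BRD alone (0.70 ± 0.09, adjusted p = 7.41e-06). Its copy POU5F1B took 0.133% and 0.00929% of their summed counts with BRD+CHIR, against 12.3% and 11.8% with BRD alone. The part of this read split in the POU5F1 change was not tested. NANOG had 139 and 162 CPM with BRD+CHIR at 24 h, against 81.0 and 86.8 CPM with BRD (0.84 ± 0.14, adjusted p = 0.00017). At 6 h the same contrast gave -0.51 for SOX2 (adjusted p = 7.3e-05), 0.71 for POU5F1 (adjusted p = 1.06e-07) and -0.54 for NANOG (adjusted p = 2.99e-05). Against None at 6 h, BRD alone changed POU5F1 by -0.74 ± 0.07 (adjusted p = 6.71e-08) and NANOG by 0.91 ± 0.09 (adjusted p = 7.38e-08), while SOX2 changed by -0.11 (adjusted p = 0.313). These contrasts called 35.5% of all genes at 24 h, 53.9% at 6 h and 54.1% against None. The BRD alone libraries belong to another title series, so treatment and series cannot be told apart.

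The effect of CHIR over BRD was also set against itself at 24 h and 6 h, with BRD+CHIR in series 38 and 33 and BRD alone in series 46, and 22.5% of all genes were called. The difference was -3.38 ± 0.18 for SOX2 (adjusted p = 1.86e-11) and 1.36 ± 0.16 for NANOG (adjusted p = 1.88e-06), and -0.03 ± 0.10 for POU5F1 (adjusted p = 0.899). The POU5F1 value carries the same limit from POU5F1B at 24 h. Primitive streak genes summed to 1741 to 1783 CPM with BRD+CHIR at 24 h, against 5.99 to 7.50 CPM with BRD alone.

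In sorted endoderm at 72 h SOX2 and POU5F1 were higher in the compound arms than in the AA arm. SOX2 had 19.0 and 19.5 CPM in the BRD arm, 19.9 and 16.5 CPM in the JNJ arm and 22.4 and 27.1 CPM in the BRD+LoAA arm, against 1.88 and 1.07 CPM in the AA arm, where it had 14 and 5 counts. No compound-arm library overlapped the AA arm. The log2 change was 3.61 ± 0.32 for BRD (95% interval 2.91 to 4.32, adjusted p = 6.54e-06), 3.53 ± 0.33 for JNJ (adjusted p = 9.11e-06) and 3.99 ± 0.32 for BRD+LoAA (adjusted p = 3.05e-06). These values rest on few AA counts, and without AA replicate 1 they were 4.16, 4.07 and 4.53. The share of all genes called against the AA arm was 21.3% for BRD, 18.5% for JNJ and 19.4% for BRD+LoAA.

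POU5F1 had 113 and 122 CPM in the BRD arm, 128 and 170 CPM in the JNJ arm and 117 and 153 CPM in the BRD+LoAA arm, against 57.6 and 58.2 CPM in the AA arm. All 6 compound-arm libraries lay above both AA libraries, with log2 changes of 1.01 ± 0.17 (adjusted p = 0.000832), 1.35 ± 0.17 (adjusted p = 0.000104) and 1.22 ± 0.17 (adjusted p = 0.000226). NANOG had 18.4 and 17.4 CPM in the BRD arm, 17.4 and 18.2 CPM in the JNJ arm and 20.7 and 21.5 CPM in the BRD+LoAA arm, against 12.8 and 12.4 CPM in the AA arm. These groups did not overlap either, yet only BRD+LoAA passed (0.74 ± 0.22, adjusted p = 0.0285). The changes of BRD (0.49, adjusted p = 0.127) and JNJ (0.49, adjusted p = 0.145) did not. The BRD+LoAA call was lost with DESeq2 (adjusted p = 0.0683) and without any 1 of its 4 libraries (adjusted p = 0.0783 to 0.122). In 1 fit over all 30 libraries the BRD and JNJ changes passed (adjusted p = 0.0222 and 0.0255), as did JNJ with copies summed (0.83, adjusted p = 0.0138) and BRD with total counts (adjusted p = 0.0492).

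Adding LoAA to BRD gave no call for any of the 3 factors. The log2 change, BRD+LoAA minus BRD, was 0.37 for SOX2 (95% interval -0.15 to 0.90), 0.21 for POU5F1 (-0.14 to 0.56) and 0.25 for NANOG (-0.20 to 0.70). edgeR called 0 genes in this comparison, with 740 at an unadjusted p under 0.05, and DESeq2 called 5 and limma-voom 0.

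The sorted libraries carried other marker differences beside the factors. Definitive endoderm genes were detected in all 4 arms, and SOX17, a factor that defines the type, averaged 238 CPM in BRD, 242 CPM in JNJ and 231 CPM in BRD+LoAA, against 392 CPM in AA. The 14 endoderm markers summed to 1846 to 2184 CPM in BRD, 2148 to 2183 CPM in JNJ and 1736 to 1751 CPM in BRD+LoAA, against 5929 to 6513 CPM in AA. Their members went both ways: 4 were higher and 5 lower in BRD, 5 and 5 in JNJ, and 4 and 7 in BRD+LoAA, with median log2 changes of -0.03, 0.10 and -0.13. Primitive streak markers summed to 721 to 970 CPM in BRD, 890 to 914 CPM in JNJ and 697 to 706 CPM in BRD+LoAA, against 2537 to 2587 CPM in AA, and of 12 tested 3 were higher in each compound arm and 6, 5 and 6 lower. Amnion and trophoblast markers summed to 148 to 184, 152 to 177 and 169 to 195 CPM in those arms, against 46.2 to 55.4 CPM in AA, where 3 of 6 tested were higher and 2 lower in each compound arm. Neural ectoderm markers summed to 242 to 254, 222 to 225 and 216 to 220 CPM, against 202 to 205 CPM in AA, and of 5 tested 2 were higher in each compound arm and 2, 1 and 2 lower. The part of these cells in the SOX2 and POU5F1 differences was not tested.

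Set against unsorted cells at 24 h, POU5F1 fell by 3.67 ± 0.15 on the log2 scale in the AA arm at 72 h, NANOG by 2.67 ± 0.16 and SOX2 by 2.26 ± 0.30. In the BRD arm the log2 changes were -2.88 ± 0.14 for POU5F1, -3.09 ± 0.16 for NANOG and -0.59 ± 0.19 for SOX2 (adjusted p = 0.0164). In the JNJ arm they were -2.67, -3.31 and -0.60 (adjusted p = 0.0157 for SOX2). The SOX2 calls of the compound arms were lost with limma-voom (adjusted p = 0.106 for BRD and 0.105 for JNJ) and without the BRD alone libraries (0.0882 and 0.0827). They were also lost without 24 h BRD+CHIR replicate 1, without either replicate of the BRD arm at 72 h and without replicate 2 of the JNJ arm at 72 h (adjusted p = 0.0624 to 0.155). In the AA arm limma-voom gave an adjusted p of 0.0573 for SOX2. The share of all genes called was 39.6%, 40.1% and 40.9% in the BRD, JNJ and AA arms. Sorting, time and title series cannot be told apart here.

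**Figure D3:**
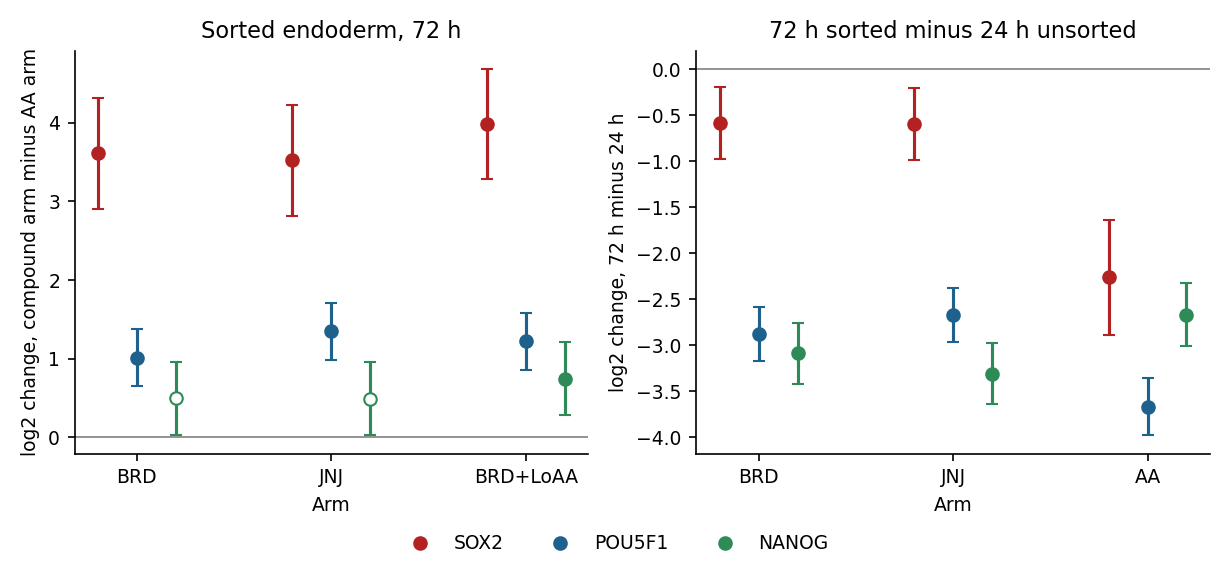
log2 change of the 3 factors in sorted endoderm at 72 h, in the compound arms relative to the AA arm (left) and in each arm relative to its unsorted cells at 24 h (right). Bars are 95% intervals and filled points have an adjusted p under 0.05; SOX2 lies between 3.53 and 3.99 on the left and nearest 0 in the compound arms on the right.

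Ordered by mean level, SOX2 was highest with BRD alone at 24 h (418 ± 44 CPM, SD, n = 2) and lowest in the AA arm at 72 h (1.47 ± 0.58 CPM), and among neighbours in this order only the BRD and JNJ arms overlapped. POU5F1 was highest in JNJ+CHIR at 24 h (947 ± 26 CPM) and lowest in the AA arm (57.9 ± 0.44 CPM). NANOG was highest in AA+CHIR at 6 h (216 ± 1.1 CPM) and lowest in the AA arm (12.6 ± 0.29 CPM). For POU5F1 the overlapping neighbours were 24 h CHIR with 6 h AA+CHIR, 6 h JNJ+CHIR with 24 h BRD+CHIR, the 6 h groups None, CHIR and BRD+CHIR in a row, and the JNJ, BRD+LoAA and BRD arms in a row. For NANOG they were 6 h BRD, 24 h CHIR and 24 h JNJ+CHIR in a row, 24 h BRD+CHIR with 6 h CHIR, 6 h BRD+CHIR with JNJ+CHIR, 24 h BRD with AA+CHIR, and the BRD with the JNJ arm. With n = 2 a gap between neighbours is no test.

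Of 30 accessory pluripotency genes, 27 were tested at 6 h and at 24 h. With CHIR at 6 h, where 2.96% of all genes were called, 3 rose and 7 fell (median log2 change -0.08, against 0.00 over all genes). DNMT3B, a de novo DNA methyltransferase, averaged 986 ± 32 CPM with CHIR and 1696 ± 51 CPM with None (SD, n = 2 each; adjusted p = 6.17e-07). With Activin A added, 5 fell and 0 rose at 6 h, a comparison that called 1.49% of all genes, and the list's median log2 change was -0.18, against -0.01 over all genes. MYCN, a MYC family factor, averaged 46.9 CPM with AA+CHIR against 81.9 CPM with CHIR (adjusted p = 0.000495). At 24 h, where 2.86% of all genes were called, 5 fell and 0 rose (median -0.35, against 0 over all genes), among them DPPA4 (251 against 385 CPM, adjusted p = 0.00458) and LIN28A, an inhibitor of let-7 maturation (1032 against 1368 CPM, adjusted p = 0.00719). Neither compound gave a call in this list over CHIR at either time, in comparisons that called 0 to 0.154% of all genes.

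Over time the list's summed level fell in every CHIR arm. It was 9875 to 10340 CPM at 6 h and 5627 to 5709 CPM at 24 h in BRD+CHIR. In JNJ+CHIR it was 10000 to 10200 CPM and then 5811 to 6065 CPM. By gene, 19 of 27 were lower and 3 higher in AA+CHIR, with the same numbers with CHIR. With BRD alone 8 were lower and 4 higher. The median log2 changes were -0.91, -0.89 and -0.22, against -0.01, -0.02 and 0.01 over all genes, of which 42.2%, 37.9% and 12.9% were called. In sorted cells at 72 h, 24 were tested: 7 rose and 4 fell in BRD, 8 rose and 2 fell in JNJ, and 8 rose and 3 fell in BRD+LoAA relative to AA. The list's median log2 changes were 0.21, 0.24 and 0.24, against 0.01, 0.01 and 0.02 over all genes, of which 21.3%, 18.5% and 19.4% were called. MYCN averaged 60.5 CPM in BRD against 17.5 CPM in AA (adjusted p = 2.06e-05), ZFP42 (REX1) 59.2 against 19.1 CPM (adjusted p = 4.17e-05), and FGF2, a growth factor that sustains human stem cells, 33.8 against 8.25 CPM (adjusted p = 5.49e-05). ZIC2 ran the other way, at 128 CPM in BRD+LoAA against 318 CPM in AA (adjusted p = 2.06e-05).

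Across the 15 group means of log2(CPM + 1), POU5F1 and NANOG had a Pearson r of 0.948, SOX2 and NANOG 0.616 and SOX2 and POU5F1 0.598. These are descriptions over groups that share time, title series and sorting. Among 12875 genes with at least 5 CPM in some group, those with the pattern most like SOX2 were USP44 (r = 0.967), AASS (0.965), FLT1 (0.964), FGF2 (0.964) and SPTSSB (0.961). The closest to POU5F1 were COTL1 (0.99), LCK (0.989), NEFL (0.988), CKMT1A (0.987) and NMRK2 (0.98), and the closest to NANOG were FAM222B (0.977), GLB1L3 (0.974), COTL1 (0.966), ADD2 (0.964) and APEX1 (0.96). At the opposite end stood COPG1 (-0.988), SULF2 (-0.976) and ASB5 (-0.971) for SOX2, NUDT4 (-0.992), CELF2 (-0.991) and ACKR3 (-0.99) for POU5F1, and UNC13C (-0.982), FZD8 (-0.981) and MCF2L2 (-0.976) for NANOG.

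The single-cell libraries kept 4193 of 6244 barcodes at 36 h, 4511 of 6321 in Endo and 5632 of 6266 in Meso, with medians of 21152, 7680 and 7873 UMIs. The libraries shared 50 to 56 barcodes between any pair, no doublet caller was run, and with 1 library per group no test was possible. Intervals cover counting error only. Against the defining markers, SOX17 had 122 CPM in Endo and 0 UMIs at 36 h and in Meso, and TBXT, a primitive streak and mesoderm factor, had 28.3 CPM at 36 h, 3.05 CPM in Endo and 326 CPM in Meso. EOMES, which specifies endoderm, had 71.2 CPM at 36 h, 272 CPM in Endo and 4.19 CPM in Meso.

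All 3 factors were highest at 36 h. SOX2 had 48.3 CPM at 36 h (95% Poisson interval 46.7 to 49.8), 6.66 CPM in Endo (5.82 to 7.59) and 3.48 CPM in Meso (2.96 to 4.07). NANOG had 65.0, 12.7 and 3.68 CPM in these libraries. POU5F1 had 995 CPM at 36 h, 310 CPM in Endo and 434 CPM in Meso, so it was lower in Endo than in Meso while SOX2 and NANOG were lower in Meso. The median cell held 18 POU5F1 UMIs at 36 h, 1 in Endo and 3 in Meso.

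To compare shares of cells, each cell was thinned to 2000 UMIs, which left out 777, 826 and 93 shallower cells. At this depth 8.52% of cells had a SOX2 UMI at 36 h, 1.28% in Endo and 0.74% in Meso, where 43.6%, 3.75% and 2.58% had one in the cells as deposited. For POU5F1 the thinned shares were 84.8%, 41.2% and 57.4%, and as deposited 93.9%, 68.4% and 93.8%. For NANOG they were 11.9%, 2.12% and 0.794%, and as deposited 54.3%, 7.45% and 2.81%. No share of free RNA was measured in these libraries, so low shares are given as they stand. In Meso as deposited, 9.36% of the 171 cells with an EOMES UMI had SOX2 (exact 95% interval 5.44% to 14.8%), against 2.36% of the 5461 without (1.98% to 2.80%), with depth not made equal. Other splits of Meso as deposited were also made and are not given. After thinning 49 cells had EOMES, under the 50 required for a split.

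**Figure D4:**
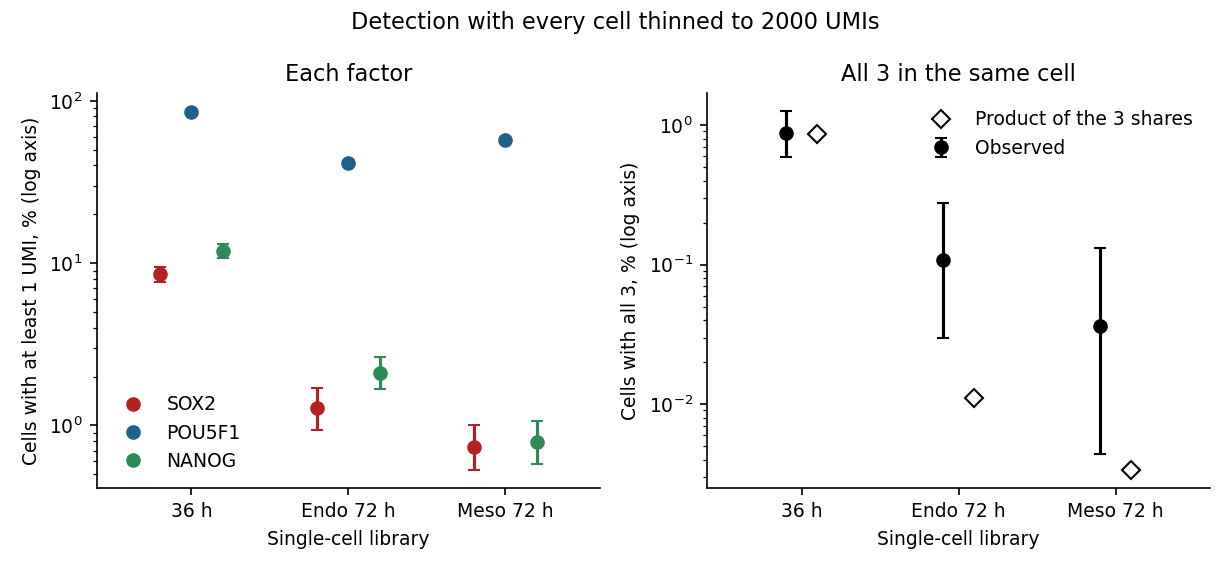
Share of cells with a UMI of each factor (left) and of all 3 factors (right) in the 36 h, Endo and Meso libraries, each cell thinned to 2000 UMIs, on log axes with exact 95% intervals that cover counting error. Diamonds are the product of the 3 single shares; at 36 h it is 0.858%, beside 0.878% observed, while in Endo 0.109% were observed beside a product of 0.0111%.

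Detection of the 3 factors in the same cell was set against the product of their single shares. At 36 h and equal depth, 30 of 3416 cells had all 3, 0.878% (exact 95% interval 0.593% to 1.25%), beside a product of 0.858%, and 35 cells had SOX2 and NANOG, 1.02% beside 1.01%. The 36 h cells as deposited held all 3 in 1421 cells, 33.9% beside a product of 22.2%, a gap that was not seen at equal depth. In Endo 4 of 3685 thinned cells had all 3, 0.109% (0.0296% to 0.278%) beside 0.0111%. The 4 thinned Endo cells with SOX2 and NANOG also had POU5F1, as did the 2 in Meso. Among the 50 such Endo cells as deposited, 1 had no POU5F1 UMI. Of the Endo cells as deposited 49 had all 3, 1.09% beside 0.191%. In Meso 2 of 5539 thinned cells had all 3, 0.0361% beside 0.00338%, and 11 cells did as deposited. The Endo and Meso counts after thinning are small.

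In Endo the share of cells with SOX2 was set beside endoderm genes, and the intervals were apart for CXCR4 but overlapped for SOX17 and FOXA2. At equal depth SOX2 was found in 3 of 721 cells with a SOX17 UMI, 0.416% (exact 95% interval 0.0859% to 1.21%), and in 1.48% of those without (1.08% to 1.99%), in 0.248% of cells with CXCR4, a surface receptor of definitive endoderm (0.0301% to 0.894%), and 1.56% of those without (1.14% to 2.09%), and in 0 of 205 cells with FOXA2, which allows up to 1.78% (exact 95% interval), against 1.35%. CXCR4 was not confined to Endo, at 143 CPM there and 63.9 CPM in Meso. For NANOG the shares were 2.08% and 2.13% by SOX17, and for POU5F1 35.2% and 42.7%. At 36 h SOX2 was found in 7 of 180 cells with TBXT, 3.89% (1.58% to 7.85%), and in 8.78% of those without (7.82% to 9.8%), with intervals that just overlapped. The same split gave 10.0% and 12.0% for NANOG. In Meso SOX2 was found in 0.83% of cells with TBXT and 0.665% of those without.

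The Endo cells as deposited were split by SOX2 and NANOG, and the 50 cells with both stood apart. Their summed POU5F1 level was 962 CPM (95% Poisson interval 896 to 1031), close to the 995 CPM of the 36 h library, against 276 CPM (270 to 282) in the 4056 cells with neither. Their SOX17 level was 6.13 CPM against 127 CPM, CXCR4 12.3 against 150 CPM, EOMES 56.4 against 280 CPM and MIXL1, a homeodomain factor of the primitive streak, 39.2 against 151 CPM. mNeonGreen, the transgene of a fluorescent protein, had 18.4 against 255 CPM. Over the libraries it went with SOX17, at 242 CPM in Endo, 0.13 CPM at 36 h and 0 in Meso. It is therefore not taken as a marker separate from SOX17. The 119 cells with SOX2 and no NANOG lay between, with POU5F1 at 490 CPM, SOX17 at 51.5 CPM and CXCR4 at 69.2 CPM. The 286 cells with NANOG and no SOX2 had POU5F1 at 418 CPM and SOX17 at 125 CPM, so their SOX17 was near that of cells with neither. The median depth was 13949 UMIs in the cells with both, 3439 in those with SOX2 and no NANOG, 11146 in those with NANOG and no SOX2 and 7167 in those with neither, and the part of depth in the split was not tested. The split was not repeated without the deepest cells. For the Endo library as a whole, leaving out the top 5% of cells by UMIs gave 299 CPM for POU5F1 and 11 CPM for NANOG.

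**Figure D5:**
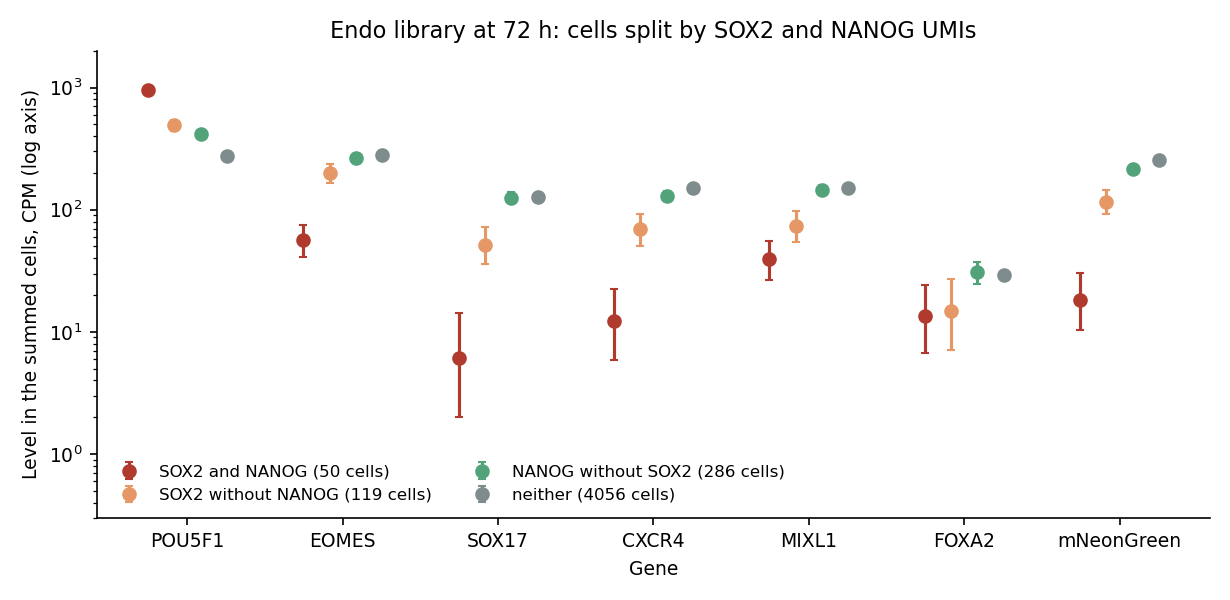
Summed level of 7 genes in the Endo library at 72 h, in CPM on a log axis, for cells split by whether they had a SOX2 and a NANOG UMI. Bars are 95% Poisson intervals; the 50 cells with both had 962 CPM of POU5F1 and 6.13 CPM of SOX17, against 276 and 127 CPM in the 4056 cells with neither.

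The same split at 36 h gave smaller steps for POU5F1, with 1033 CPM in the 1421 cells with both, 967 CPM with SOX2 alone, 990 CPM with NANOG alone and 885 CPM in the 1510 cells with neither. Primitive streak genes ran the other way, with MIXL1 at 78.4, 112, 171 and 273 CPM in those cells, EOMES at 53.6, 63.5, 82.6 and 121 CPM and TBXT at 18.3, 25.7, 36.9 and 51.8 CPM. The median depth was 27443 UMIs in the cells with both, 21041 with SOX2 alone, 23484 with NANOG alone and 2318 in those with neither, and the part of depth was not tested. In Meso the 11 cells with both had POU5F1 at 633 CPM (485 to 811), against 431 CPM in the 5340 cells with neither, and TBXT at 133 CPM against 327 CPM.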

How the data were processed

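For the bulk RNA-seq the authors deposited expected counts per gene (fractional, 16103 genes, 30 libraries). The submitters' processing notes name Salmon 1.4.0, limma 3.48.1 and edgeR 3.34.0 but give none of them a role. The deposited single-cell files hold UMI counts per cell, and their file headers name Cell Ranger 3.0.2 and GRCh38. The aggregated single-cell matrix was not used here.

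The expected counts were rounded and tested with edgeR 4.0.16 in R 4.3.3 (filterByExpr, TMM scaling, two-sided quasi-likelihood F-test). Each time point had a fit of its own, and 2 further fits joined 6 h with 24 h and 24 h with 72 h, for 33 comparisons in all. A gene was called at an adjusted p under 0.05 (Benjamini-Hochberg, over 13889 to 15717 genes). Residual degrees of freedom were 4 to 11, and an SE is the log2 change over the root of F. The fits and the thinning of cells were first tested on simulated data. Alternatives were DESeq2 1.42.0, limma-voom (limma 3.58.1), other scalings, no filter, 1 fit over all libraries, a replicate block, each library left out, and summed copies.

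Barcodes needed 500 genes and at most 10% mitochondrial UMIs (Python 3.11.15, numpy 2.4.6, scipy 1.17.1). Poisson and binomial intervals are exact, at 95%. Promoter sequences came from RefSeq (GRCh38.p14), where SOX2 and NANOG matched by symbol.

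Genes named are the 3 factors, the 5 most and 3 least like each over the group means, up to 4 called members of each gene list with the smallest p, and SOX17, EOMES, TBXT, MIXL1, TBX6, FOXA2 and CXCR4 in single cells. Members and lists were chosen with earlier results of these data known. One list gene that the rule names is not reported here.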

Additional observations from a re-analysis of the deposited data

Results flagged for a closer look

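In 1 fit over 6 h and 24 h, the effect of Activin A over CHIR differed between the times by -1.83 on the log2 scale for NANOG, -0.87 for SOX2 and -0.39 for POU5F1 (24 h minus 6 h; edgeR's quasi-likelihood test, adjusted p = 5.4e-07, 0.0115 and 0.0494). The POU5F1 call was lost with RLE scaling, total counts, no filter, the replicate block, 1 fit over all libraries or copies summed. The SOX2 call was lost with limma-voom, and the calls of these 2 genes also depended on single libraries. Both AA+CHIR libraries lay above both CHIR libraries for NANOG at 6 h and below them at 24 h. The effect of CHIR over BRD differed between the times by -3.38 for SOX2 and 1.36 for NANOG (adjusted p = 1.86e-11 and 1.88e-06). In that comparison the BRD+CHIR libraries belong to title series 33 and 38 and the BRD alone libraries to series 46, so treatment and series cannot be told apart.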

How the results depend on the processing

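The 3 factors in 33 comparisons were recomputed under 9 planned settings and 2 added after seeing the data (near-identical copies summed, MTRNR2L genes left out), except that leaving out the BRD alone libraries applied to 23 of the comparisons. Of these values 1015 kept direction and call, 16 lost the call, 12 gained one and 16 changed sign, all 16 among changes that were not called. The cause was not tested for any of them.

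Among lost calls, 1 fit over all 30 libraries gave -0.42 for SOX2 and 0.43 for NANOG in 6 h CHIR minus None (adjusted p = 0.156 and 0.0621). limma-voom gave -0.89 for SOX2 in the Activin A effect between times, and -2.23, -0.59 and -0.61 for SOX2 in the AA, BRD and JNJ arms from 24 h (adjusted p = 0.0573 to 0.134). Without the BRD alone libraries SOX2 changed by -0.57 in the BRD arm and -0.58 in the JNJ arm (adjusted p = 0.0882 and 0.0827). DESeq2 gave 0.75 for NANOG in BRD+LoAA minus AA. The POU5F1 difference in the Activin A effect was -0.39 with RLE scaling, no filter or the replicate block, -0.38 with total counts, -0.39 in 1 fit over all libraries and -0.33 with copies summed (adjusted p = 0.0505 to 0.231). POU5F1 in AA+CHIR over time was -0.10 with total counts.

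Among gained calls, POU5F1 in 24 h AA+CHIR minus CHIR was -0.28 with DESeq2, -0.28 with limma-voom and -0.29 without BRD alone. SOX2 in 6 h BRD minus None was -0.21 with upper-quartile scaling. NANOG against the AA arm was 0.65 for BRD with total counts, 0.50 for BRD and 0.50 for JNJ in 1 fit over all libraries, and 0.83 for JNJ with copies summed. POU5F1 over time was 0.15 in JNJ+CHIR with DESeq2, and 0.28, 0.20 and 0.29 in CHIR, BRD+CHIR and JNJ+CHIR with total counts, under which the median of all genes moved to 0.10 to 0.12 in these arms.

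Sign changes of uncalled values were small. NANOG in 6 h BRD+CHIR minus JNJ+CHIR was -0.0057 (DESeq2), -0.0056 (RLE), -0.043 (copies summed) and -0.0037 (MTRNR2L left out). NANOG in 72 h BRD minus JNJ was -0.0023 (limma-voom), -0.00021 (all libraries) and -0.23 (copies summed). POU5F1 with total counts was 0.0027 in 6 h CHIR minus None, 0.011 in 6 h BRD+CHIR minus CHIR and 0.035 in the CHIR effect over BRD, and SOX2 was -0.0097 in the BRD effect between times. POU5F1 was 0.0067 in 6 h CHIR minus None and -0.086, -0.11 and -0.064 over time in CHIR, BRD+CHIR and JNJ+CHIR with copies summed, and -5.2e-05 in the JNJ effect with upper-quartile scaling.

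Leaving out 1 library at a time, with a lone replicate taken to vary like the other groups, 388 of 444 values kept direction and call. The calls that were lost had ranges of -0.55 to -0.29 for SOX2 and 0.34 to 0.52 for NANOG in 6 h CHIR minus None, 0.33 to 0.38 for POU5F1 in 24 h JNJ+CHIR minus AA+CHIR and 0.73 to 0.79 for NANOG in BRD+LoAA minus AA. They were -1.14 to -0.64 for SOX2 and -0.43 to -0.35 for POU5F1 in the Activin A effect between times, 0.33 to 0.51 (CHIR) and 0.29 to 0.44 (JNJ+CHIR) for NANOG over time, and -0.63 to -0.54 (BRD arm) and -0.73 to -0.46 (JNJ arm) for SOX2 at 72 h. Uncalled values that changed sign ran -0.041 to 0.011 for POU5F1 in 6 h CHIR minus None, -0.041 to 0.014 for POU5F1 in 6 h BRD+CHIR minus CHIR, -0.24 to 0.032 for SOX2 in 6 h BRD minus None (called without None replicate 1, adjusted p = 0.0425) and -0.034 to 0.038 for NANOG in 6 h BRD+CHIR minus JNJ+CHIR. At 72 h they ran -0.046 to 0.053 (NANOG) and -0.063 to 0.24 (SOX2) for BRD minus JNJ and -0.0093 to 0.40 for POU5F1 in BRD+LoAA minus BRD. In effects between times they ran -0.11 to 0.13 (SOX2, BRD), -0.24 to 0.0045 (SOX2, JNJ), -0.037 to 0.040 (POU5F1, JNJ), -0.14 to 0.038 (NANOG, JNJ) and -0.11 to 0.051 (POU5F1, CHIR over BRD).

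Same-numbered replicates did not deviate together (median correlations near 0, range -0.166 to 0.193), and the replicate block changed no other call. The share of genes called also moved: 6 h CHIR minus None had 441 genes, 186 in 1 fit over all libraries and 208 to 268 without a library. 6 h AA+CHIR minus CHIR had 222, against 91 and 65 to 155. 24 h AA+CHIR minus CHIR had 445, against 726 with DESeq2, 1157 in 1 fit over all libraries and 203 to 260 without a library, and the Activin A effect between times 298, against 544 with DESeq2 and 161 to 336.

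In single cells the shares follow depth. Thinned to 1000 and then 5000 UMIs, the 36 h shares were 4.27% and 20.7% for SOX2, 60.3% and 98.7% for POU5F1, 5.70% and 26.8% for NANOG and 0.167% and 6.10% for all 3. Endo had 1.96% for SOX2 at 5000, 25.5% and 68.2% for POU5F1, 1.37% and 5.51% for NANOG and 0.528% for all 3 at 5000. Meso had 0.374% and 1.68% for SOX2, 34.6% and 87.8% for POU5F1, 0.427% and 1.60% for NANOG and 0% for all 3 at 1000. Without the top 5% of cells by UMIs, Meso had 0.457% for SOX2, 0.514% for NANOG and 0% for all 3, and Endo 299 CPM of POU5F1 and 11 CPM of NANOG. With all barcodes, 36 h had POU5F1 in 80.1% of cells at 968 CPM. The aggregated matrix was not run.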
